A study of Mus musculus with 20 samples.

Results

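The contractile and calcium handling machinery of skeletal muscle was followed as 45 genes, chosen by symbol, in the diaphragms of mice given asbestos fibers or carbon nanotubes. All 45 had at least 1 probe among the 34797 gene names on the array, 71 probes in all, and each gene was read from the probe with the highest mean log2 signal over the 20 arrays. Female C57Bl/6 mice aged 8 weeks received 1 injection into the pleural space, and diaphragm tissue was frozen 12 weeks later. The 5 groups, with 4 mice each, were vehicle control (VC, BSA in saline), short or long fiber amosite asbestos (SFA and LFA, 25 µg per mouse) and short or long carbon nanotubes (SNT and LNT, 5 µg per mouse). Mass dose therefore differed between asbestos and nanotubes, and whole tissue was measured, so that fewer muscle cells and less RNA per muscle cell cannot be told apart.

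In striated muscle, myosin heads pull on actin filaments inside the sarcomere, whose ends are anchored by alpha-actinin at the Z-disc. Calcium released from the sarcoplasmic reticulum through the ryanodine receptor binds troponin, which moves tropomyosin off the myosin sites, and calcium pumps then return it to the store. Slow and fast fibers build this machinery from different genes for many of its parts, and the diaphragm contains fibers of both kinds.

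Values are log2 of the processed spot intensity minus the log2 of the 75th percentile of that array, so that 0 is the level of that percentile. A member was called where limma gave an adjusted p under 0.05 over all 36930 probes tested and a change of at least 2-fold. All 10 skeletal muscle markers, 7 of them members, were above background on all 20 arrays, as were 5 of 6 heart markers. Of 3 lung markers none was above it on all 20 arrays, but none stayed below it throughout. The arrays lay on 3 slides, the 75th percentile ran from 292 to 991, and at most 68.1% of an array's spots exceeded background clearly. That percentile was 961 and 860 on LFA replicates 1 and 2 and 862, 991 and 758 on LNT replicates 1, 3 and 4. All other arrays lay at 647 or below, LFA replicates 3 and 4 and LNT replicate 2 among them. Array brightness thus went in part with the long fiber groups. Liver marker transcripts summed to more than 1000 times the 75th percentile on 5 arrays, namely 1 of SFA, 2 of LFA and SNT replicates 3 and 4.

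The members were lower in both long fiber groups. Relative to VC, 44 of the 45 means were lower with LFA, as were 44 with LNT, and the log2 changes had medians of -1.12 and -1.05, respectively. All probes tested had a median of -0.28 (LFA) and -0.25 (LNT), and 66.2% and 65.2% of those probes were lower. In LFA 11 members were called lower, beside 1.75% of all probes tested, and in LNT 13, beside 3.16%. At the adjusted p alone 14 members were lower in LFA (2.09% of all probes) and 16 in LNT (4.01%). All 4 LFA arrays lay below all 4 VC arrays for 30 members, which held for 11.8% of all probes, and all 4 LNT arrays did for 32 members, which held for 13.9%. Both comparisons use the same VC arrays. The number called depended on single arrays, running from 1 (without LFA replicate 2) to 19 (without SNT replicate 4) in LFA and from 5 (without VC replicate 2 or LNT replicate 1) to 20 (without SNT replicate 4) in LNT when 1 array was left out, and it was 4 and 6 with slide as a block and 3 and 3 with quantile normalization. The share of all probes called was not counted in those runs. The median change stayed between -1.22 and -0.96 in LFA and between -1.16 and -0.98 in LNT when 1 array was left out.

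**Figure D1:**
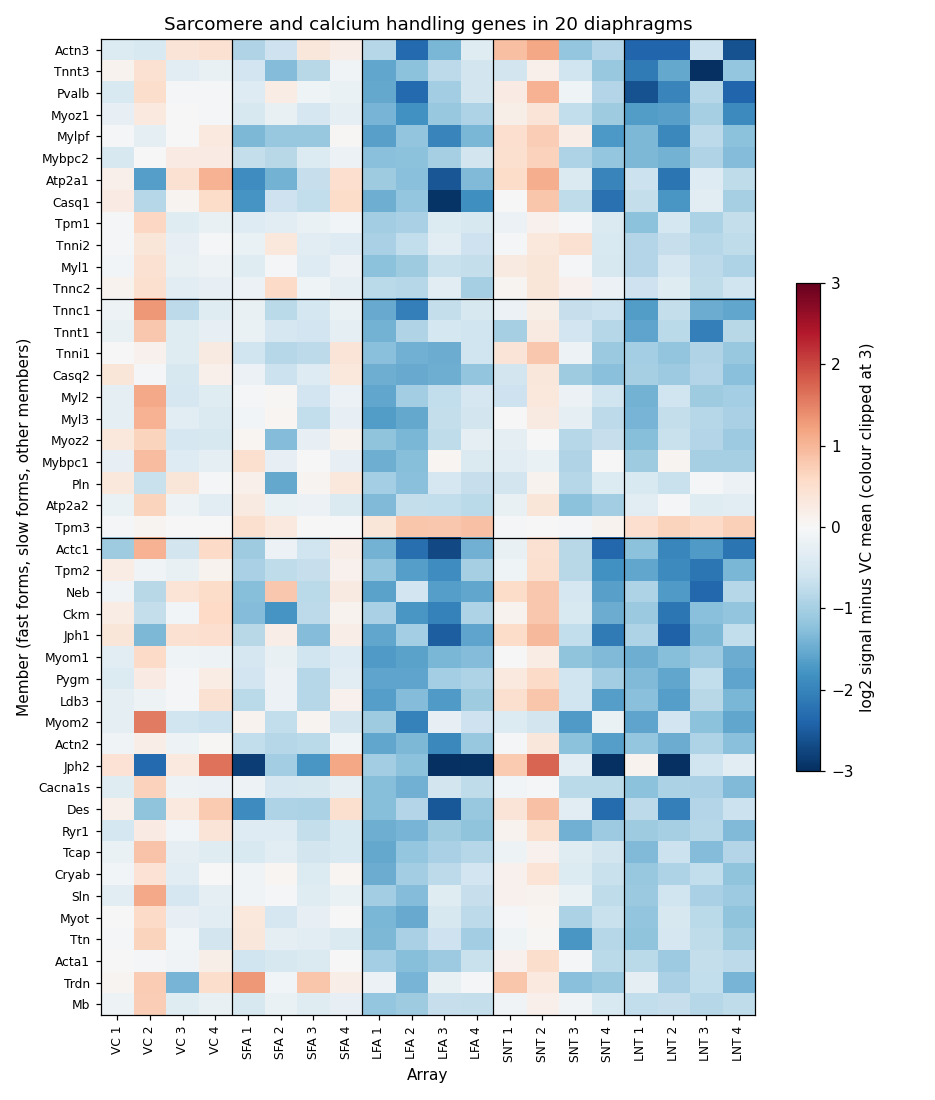
Each row is a member and each column an array, coloured by its log2 signal minus the VC mean, with fast forms at the top, slow forms in the middle and the other members below. The LFA and LNT columns are mostly blue, SNT replicates 3 and 4 are blue for many members, and Tpm3 is the 1 row that is red in both long fiber groups.

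The short fiber groups gave no call. In SFA 0 members passed limma's test (0% of all probes) and in SNT 0 (0% of all probes), also at an unadjusted p under 0.05, while the median member change was -0.36 and -0.31. Per array, the member median relative to the VC mean was -0.01, 0.35, -0.60 and -0.87 in SNT. In LFA it was -1.35, -1.28, -0.97 and -0.75, so that SNT replicate 4 lay within the LFA range and SNT replicate 3 above it. LNT lay between -1.17 and -0.87, and SFA read -0.39, -0.32, -0.51 and -0.10. Within the slide that held VC replicate 4, the 2 SNT arrays had a median member change of -0.75 and the 2 LFA arrays -0.67, with 42 of 45 members lower in each. On the slide that held the first 2 VC arrays, the change was 0.09 in SNT, -0.50 in SFA with 41 of 45 members lower, -1.44 in the LFA array and -1.21 in the LNT array. The third slide gave -0.13 for SFA with 30 members lower, -1.19 for LFA and -0.76 for LNT. It held 1 VC array, as did the slide of VC replicate 4. The share of all probes lower within a slide was not counted. Over all slides, 61.3% of probes were lower in SFA and 56.9% in SNT. The liver markers summed to 3432 and 3183 on SNT replicates 3 and 4, against 22 to 279 in VC, and their part in the low member values there was not tested.

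Macrophage markers were higher in both long fiber groups. Their sum ran from 63 to 101 in VC, 179 to 319 in LFA and 281 to 356 in LNT. It ran from 67 to 96 in SFA and from 69 to 102 in SNT. On SNT replicates 3 and 4, where the members were low as well, it was 102 and 86. Of 11 macrophage markers with a probe, 7 were called higher in LFA and 10 in LNT. Matrix markers summed to 599 to 955 in VC, 724 to 1394 in LFA and 881 to 1670 in LNT, with 2 and 5 of 8 called higher. They summed to 677 to 923 in SFA and 581 to 736 in SNT. Adipocyte markers summed to 600.0 to 1356 in VC, 395 to 737 in LFA and 288 to 585 in LNT, with 1 and 3 of 6 called lower. LFA overlapped with VC there, and the sums were 639 to 962 in SFA and 413 to 954 in SNT. Smooth muscle markers summed to 30.3 to 47.0 in VC, 11.7 to 22.8 in LFA and 19.6 to 27.2 in LNT. Neither long fiber group overlapped with VC there, but 0 of 3 markers were called in either. SFA replicates 1, 3 and 4, at 19.7, 23.6 and 22.1, also lay below all VC arrays, and SFA replicate 2 lay above them. SNT replicate 4, at 23.3, lay below VC too, and the other SNT arrays lay within its range. Low smooth muscle sums were thus not limited to the long fiber groups. The 10 skeletal muscle markers summed to 2747 to 3734 in VC, 1336 to 1836 in LFA and 1188 to 1522 in LNT, with 2 called lower in each. They summed to 2165 to 2771 in SFA and 1692 to 3809 in SNT, the lowest SNT array lying within the LFA range. Each array was scaled to its own 75th percentile, so the member values are relative to the other RNA of the same tissue, and the part of the other cell types in them was not tested.

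**Figure D2:**
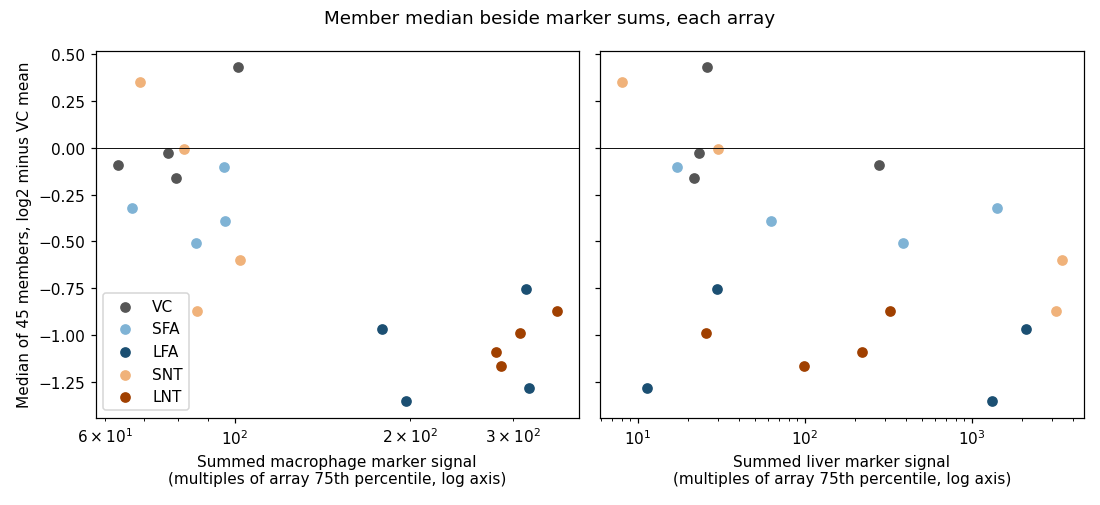
Each point is an array, with the median of the 45 members relative to the VC mean on the vertical axis and the summed macrophage or liver marker signal on a logarithmic horizontal axis. All LFA and LNT arrays lie to the right of all other arrays for macrophage markers, whereas liver marker sums above 1000 occur in SFA, LFA and SNT.

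Of the thin filament genes among the members, the fast troponin T gene Tnnt3 had the largest fall in LNT. Its log2 signals were 9.5, 9.84, 9.05 and 9.16 in VC and 7.27, 7.85, 6.33 and 8.23 in LNT. In LFA they were 7.84, 8.17, 8.61 and 8.83. Both long fiber groups lay below VC without overlap, but the test was passed in LNT alone (-1.03 ± 0.39, adjusted p = 0.12 in LFA and -1.97 ± 0.39, adjusted p = 0.0047 in LNT), and the difference between LFA and LNT did not pass it. Its SFA values of 8.82, 8.09, 8.56 and 9.28 and SNT values of 8.84, 9.53, 8.79 and 8.26 overlapped with VC. The slow troponin T gene Tnnt1 read 8.41, 9.43, 8.27 and 8.38 in VC, 7.2, 7.72, 8.09 and 8.04 in LFA and 7.04, 7.81, 6.57 and 7.8 in LNT. It too was called in LNT (-0.86 ± 0.35, adjusted p = 0.15 in LFA and -1.32 ± 0.35, adjusted p = 0.026 in LNT), with SFA at 8.43, 8.11, 8.05 and 8.33 and SNT at 7.64, 8.9, 8.06 and 7.77. VC replicate 2 was the highest array for Tnnt1, about 1 log2 unit above the other VC arrays.

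Both Tnnt3 probes lie in the coding sequence on chromosome 7 of NCBI37, at chr7:149698467-149698526 and from 149698500 to 149700262, the latter range being longer than the probe. They are shown because their last and first 27 bases, in capitals, are the same, so the second reading is not independent of the first. In LNT the second probe fell by 2.15 on the log2 scale.
Tnnt3 first probe: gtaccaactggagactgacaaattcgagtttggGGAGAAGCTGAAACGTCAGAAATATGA
Tnnt3 second probe: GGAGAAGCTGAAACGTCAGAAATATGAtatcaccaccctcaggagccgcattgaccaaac

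Beta-tropomyosin, Tpm2, was called in both groups (-1.42 ± 0.39, adjusted p = 0.045 in LFA and -1.75 ± 0.39, adjusted p = 0.01 in LNT). It read 7.61, 7.28, 7.17 and 7.48 in VC, 6.21, 5.73, 5.53 and 6.38 in LFA and 5.82, 5.47, 5.21 and 6.02 in LNT. The SFA values were 6.42, 6.63, 6.68 and 7.52 and the SNT values 7.26, 7.86, 6.55 and 5.57. SNT replicate 4 lay within the range of LFA and LNT. The cardiac actin gene Actc1, also expressed in skeletal muscle at low level, read 5.15, 7.27, 5.67 and 6.81 in VC, 4.82, 3.96, 3.51 and 4.78 in LFA and 5.0, 4.28, 4.53 and 4.04 in LNT. Its values were 5.16, 6.04, 5.63 and 6.43 in SFA and 6.0, 6.67, 5.4 and 3.88 in SNT. Actc1 was called in LFA and just missed the threshold in LNT (-1.96 ± 0.54, adjusted p = 0.048 in LFA and -1.76 ± 0.54, adjusted p = 0.053 in LNT). The skeletal actin gene Acta1 was called in LFA (-1.01 ± 0.25, adjusted p = 0.031 in LFA and -0.85 ± 0.25, adjusted p = 0.045 in LNT). The remaining troponin genes Tnni1, Tnni2, Tnnc1 and Tnnc2 were not called, with changes between -1.36 and -0.59.

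Tropomyosin 3, the form of slow fibers that is also made outside muscle, was the 1 member with a higher mean. Its brightest probe, at position 1853 of transcript variant 3, read 5.51, 5.66, 5.58 and 5.56 in VC, 5.94, 6.4, 6.39 and 6.46 in LFA and 6.08, 6.25, 6.16 and 6.28 in LNT. The SFA values were 6.06, 5.87, 5.58 and 5.56 and the SNT values 5.55, 5.56, 5.54 and 5.69. All LFA and LNT arrays lay above all VC arrays, as for 4.56% and 6.36% of all probes, and the test was passed without reaching 2-fold (0.72 ± 0.18, adjusted p = 0.035 in LFA and 0.62 ± 0.18, adjusted p = 0.046 in LNT), as it was in the higher direction for 2.27% of probes in LFA and 3.81% in LNT. The other Tpm3 probes went the opposite way. The probe at position 227 of variant 1 read 4.07, 4.42, 3.56 and 4.02 in VC, 2.14, 2.28, 2.14 and 2.51 in LFA and 2.04, 2.53, 2.24 and 2.71 in LNT, a change of -1.75 ± 0.37, adjusted p = 0.015 and -1.64 ± 0.37, adjusted p = 0.012. The probe at position 681 of variant 4 changed by -1.46 ± 0.39, adjusted p = 0.043 in LFA and -1.65 ± 0.39, adjusted p = 0.016 in LNT. The direction given for Tpm3 thus turns on the probe, and the average of its 3 probes was lower in both groups.

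The probes of Tpm3 that fell are shown to place them in the gene. They lie in coding sequence on the plus strand of chromosome 3, at chr3:89877669-89877728 for position 227 and chr3:89892985-89893044 for position 681 of NCBI37.
Tpm3 position 227: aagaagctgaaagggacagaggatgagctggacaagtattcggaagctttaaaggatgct
Tpm3 position 681: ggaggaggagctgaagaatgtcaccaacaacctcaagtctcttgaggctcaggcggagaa

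RefSeq lists 2 starts of Tpm3 on GRCm38.p6, 6870 bases apart, and the probes were not assigned to either start here. The windows below run from 250 bases before to 50 after each start, with matches to the E-box, CANNTG, in capitals. That of Acta1, on the minus strand, is shown beside them as a called member and also has a CArG match in capitals. The windows are chr3:90072401-90072700, chr3:90079271-90079570 and chr8:123894726-123895025.
Tpm3 first start: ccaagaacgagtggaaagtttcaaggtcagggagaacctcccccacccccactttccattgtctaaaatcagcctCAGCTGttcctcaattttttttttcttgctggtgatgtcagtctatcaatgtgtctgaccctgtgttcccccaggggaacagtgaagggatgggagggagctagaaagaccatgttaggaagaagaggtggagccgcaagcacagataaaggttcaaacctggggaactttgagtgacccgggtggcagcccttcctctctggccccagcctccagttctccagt
Tpm3 second start: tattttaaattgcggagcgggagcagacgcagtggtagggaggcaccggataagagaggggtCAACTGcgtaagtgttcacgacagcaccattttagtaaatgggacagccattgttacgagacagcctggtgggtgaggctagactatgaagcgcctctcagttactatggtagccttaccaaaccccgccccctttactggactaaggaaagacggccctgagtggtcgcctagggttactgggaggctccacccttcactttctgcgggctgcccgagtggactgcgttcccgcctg
Acta1 start: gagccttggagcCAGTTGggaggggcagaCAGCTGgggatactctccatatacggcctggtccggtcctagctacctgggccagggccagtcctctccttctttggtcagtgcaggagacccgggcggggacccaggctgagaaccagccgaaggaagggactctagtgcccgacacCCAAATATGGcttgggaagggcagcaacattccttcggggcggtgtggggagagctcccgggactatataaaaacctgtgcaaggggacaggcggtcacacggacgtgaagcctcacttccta

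Of the members, 32 had 40 such windows. Searched on both strands, an E-box was in 36 of the 40 and in 72.3% of all 32851 windows. A CArG match was in 6 of the 40, against 1.63% of all, and a MEF2 match in 4 of the 40, against 3.19%. The 5 members with a CArG match were Acta1, Actc1, Ldb3, Myl3 and Myom1, of which 3 were called in LFA and 1 (Myom1) in LNT, beside 6 and 8 of the 27 other members with a window. These are matches of letters only.

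Tropomyosin 1 had 6 probes. The brightest read 9.69, 10.34, 9.36 and 9.5 in VC, 8.68, 8.74, 9.3 and 9.23 in LFA and 8.49, 9.19, 8.76 and 9.0 in LNT (-0.73 ± 0.25, adjusted p = 0.089 in LFA and -0.86 ± 0.25, adjusted p = 0.04 in LNT). It read 9.33, 9.41, 9.52 and 9.65 in SFA and 9.54, 9.84, 9.66 and 9.28 in SNT. The next probe, 14 bases further along the same variant, fell by 0.95 and 1.01 on the log2 scale. The other 4 probes were dim and did not pass the test, with changes between -0.43 and 0.42. Of 17 members with several probes, Tpm1 and Tpm3 were the ones whose probes differed in sign.

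**Figure D3:**
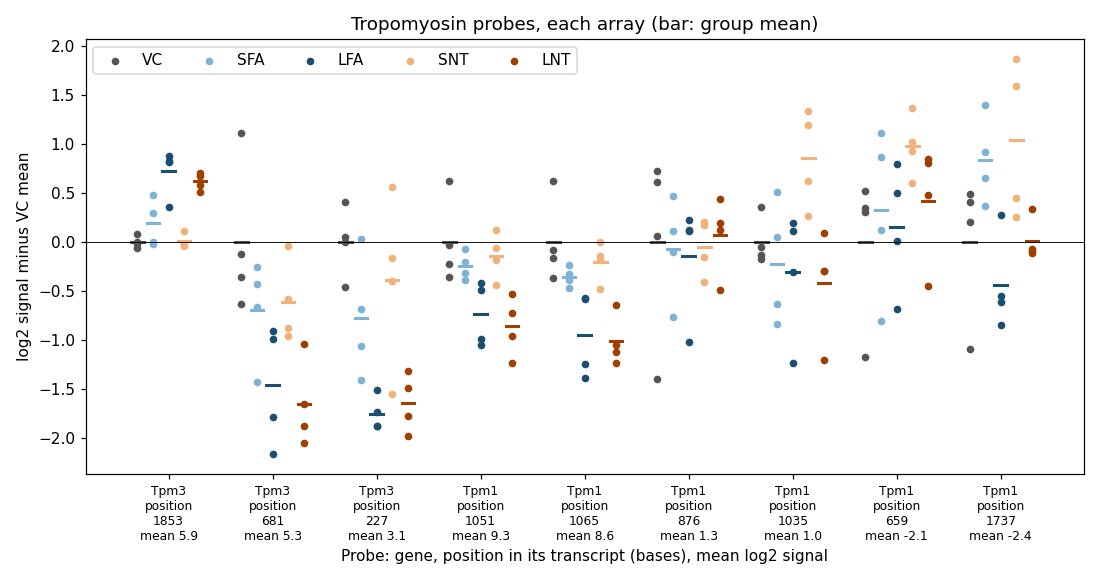
Each point is an array and each bar a group mean of the log2 signal minus the VC mean, for the 3 Tpm3 and 6 Tpm1 probes, labelled by position in the transcript in bases and by mean log2 signal. The Tpm3 probe at position 1853 is higher in LFA and LNT, the other Tpm3 probes and the 2 brightest Tpm1 probes are lower, and the dim Tpm1 probes scatter around 0.

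At the Z-disc, alpha-actinin 3, Actn3, which is made in fast fibers, had the largest fall of the members in LNT. It read 3.94, 3.89, 4.74 and 4.8 in VC and 1.96, 1.96, 3.69 and 1.72 in LNT, where the third array lay apart from the other 3. In LFA it read 3.49, 2.01, 2.97 and 3.97, and the last of these overlapped with VC. It was called in LNT (-1.23 ± 0.57, adjusted p = 0.19 in LFA and -2.01 ± 0.57, adjusted p = 0.037 in LNT), with 3.43, 3.71, 4.69 and 4.54 in SFA and 5.25, 5.51, 3.19 and 3.47 in SNT. Alpha-actinin 2, Actn2, present in all fibers, read 6.2, 6.5, 6.15 and 6.34 in VC, 4.75, 4.94, 4.36 and 5.17 in LFA and 5.13, 4.82, 5.36 and 5.03 in LNT. It was called in both (-1.49 ± 0.35, adjusted p = 0.025 in LFA and -1.21 ± 0.35, adjusted p = 0.041 in LNT). In SFA Actn2 read 5.56, 5.44, 5.5 and 6.18 and in SNT 6.26, 6.63, 5.08 and 4.63, so that the last 2 SNT arrays were as low as LFA.

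Myozenin 1, Myoz1, a Z-disc protein of fast fibers, read 6.33, 6.88, 6.6 and 6.53 in VC, 5.18, 4.76, 5.46 and 5.66 in LFA and 4.91, 4.95, 5.59 and 4.67 in LNT. Neither long fiber group overlapped with VC and both were called (-1.32 ± 0.31, adjusted p = 0.024 in LFA and -1.55 ± 0.31, adjusted p = 0.0049 in LNT). Its SFA values were 6.1, 6.36, 6.08 and 6.31 and its SNT values 6.76, 6.96, 5.85 and 5.53. The M-band protein gene Myom1 read 5.24, 6.14, 5.44 and 5.42 in VC, 3.87, 3.95, 4.18 and 4.26 in LFA and 4.09, 4.29, 4.48 and 4.06 in LNT. It had the smallest adjusted p of the members in LFA (-1.5 ± 0.31, adjusted p = 0.013 in LFA and -1.33 ± 0.31, adjusted p = 0.014 in LNT), with SFA at 5.05, 5.34, 4.96 and 5.18 and SNT at 5.54, 5.78, 4.34 and 4.23. Tcap, which caps titin at the Z-disc, was called in both (-1.13 ± 0.27, adjusted p = 0.028 in LFA and -1.04 ± 0.27, adjusted p = 0.026 in LNT). The giant proteins titin and nebulin were not called, at -0.99 and -1.35 in LFA and -0.88 and -1.46 in LNT. Mybpc2, the fast myosin binding protein C, was called in LNT (-1.01 ± 0.36, adjusted p = 0.1 in LFA and -1.25 ± 0.36, adjusted p = 0.039 in LNT), and its slow counterpart Mybpc1 was not, at -0.78 and -0.74.

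The myosin light chain genes support and regulate the myosin head. Myl1, of fast fibers, passed the adjusted p in LFA below 2-fold (-0.91 ± 0.23, adjusted p = 0.034 in LFA and -0.76 ± 0.23, adjusted p = 0.051 in LNT). The fast form Mylpf and the slow forms Myl2 and Myl3 were not called, at -1.54, -0.96 and -1.12 in LFA and -1.32, -1.03 and -0.99 in LNT. Of the remaining Z-disc and M-band genes, Ldb3, Myot, Myoz2 and Myom2 were not called, with changes of -1.43, -1.03, -0.91 and -0.99 in LFA and -1.28, -0.92, -0.98 and -1.23 in LNT. Myoglobin, Mb, the oxygen store of oxidative fibers, passed the adjusted p in LFA below 2-fold (-0.91 ± 0.24, adjusted p = 0.037 in LFA and -0.76 ± 0.24, adjusted p = 0.055 in LNT).

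The small heat shock protein gene Cryab, which protects desmin filaments, read 8.55, 9.07, 8.3 and 8.64 in VC, 7.16, 7.59, 7.87 and 8.06 in LFA and 7.5, 7.71, 7.91 and 7.45 in LNT. Without overlap with VC, it passed the adjusted p in both and lay just under 2-fold (-0.97 ± 0.27, adjusted p = 0.048 in LFA and -1.0 ± 0.27, adjusted p = 0.029 in LNT). It read 8.53, 8.7, 8.23 and 8.69 in SFA and 8.78, 9.05, 8.23 and 7.96 in SNT. Pygm, the muscle glycogen phosphorylase, read 6.61, 7.26, 6.96 and 7.25 in VC, 5.44, 5.44, 6.0 and 6.11 in LFA and 5.71, 5.47, 6.28 and 5.45 in LNT. Both long fiber groups were called (-1.28 ± 0.33, adjusted p = 0.036 in LFA and -1.3 ± 0.33, adjusted p = 0.022 in LNT). The short fiber values of Pygm were 6.45, 6.84, 6.17 and 6.7 in SFA and 7.32, 7.59, 6.42 and 5.98 in SNT. Creatine kinase Ckm was at -1.42 and -1.43 and was not called.

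Of the calcium handling genes, the ryanodine receptor Ryr1 read 5.17, 5.94, 5.62 and 6.08 in VC, 4.24, 4.3, 4.63 and 4.49 in LFA and 4.64, 4.71, 4.84 and 4.39 in LNT. It was called in LFA (-1.28 ± 0.34, adjusted p = 0.04 in LFA and -1.05 ± 0.34, adjusted p = 0.063 in LNT), and SNT read 5.8, 6.17, 4.25 and 4.61, with SFA at 5.32, 5.31, 4.99 and 5.23. The voltage sensor Cacna1s was called in both groups (-1.0 ± 0.28, adjusted p = 0.047 in LFA and -1.12 ± 0.28, adjusted p = 0.019 in LNT). Its LFA change was barely past 2-fold, and that call was lost in 24 alternative runs and kept in 10. Triadin, Trdn, which ties calsequestrin to the release channel, was not called, at -0.46 and -0.85. Calsequestrin 2, Casq2, which buffers calcium in the store of slow fibers and heart, read 4.83, 4.42, 3.97 and 4.6 in VC, 3.0, 2.94, 2.98 and 3.28 in LFA and 3.47, 3.37, 3.57 and 3.21 in LNT. It was called in both (-1.41 ± 0.31, adjusted p = 0.017 in LFA and -1.05 ± 0.31, adjusted p = 0.042 in LNT), with 4.29, 3.8, 4.08 and 4.78 in SFA and 3.91, 4.8, 3.4 and 3.2 in SNT.

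Parvalbumin, Pvalb, a soluble calcium buffer of fast fibers, read 7.08, 8.06, 7.47 and 7.5 in VC, 6.0, 5.19, 6.48 and 6.98 in LFA and 4.92, 5.56, 6.68 and 5.14 in LNT. Both groups lay below VC and LNT was called (-1.36 ± 0.44, adjusted p = 0.078 in LFA and -1.95 ± 0.44, adjusted p = 0.011 in LNT). In SFA it read 7.15, 7.75, 7.41 and 7.33 and in SNT 7.77, 8.57, 7.4 and 6.65. Sarcolipin, Sln, which inhibits the calcium pump, read 8.37, 9.84, 8.18 and 8.39 in VC, 7.66, 7.39, 8.33 and 8.0 in LFA and 7.59, 8.09, 7.73 and 7.62 in LNT. It was not called (-0.85 ± 0.32, adjusted p = 0.13 in LFA and -0.94 ± 0.32, adjusted p = 0.084 in LNT), and VC replicate 2 was the highest of all arrays. Without that array the changes of Sln were -0.47 in LFA and -0.56 in LNT. SFA read 8.58, 8.67, 8.33 and 8.5 and SNT 8.83, 8.79, 8.5 and 7.94. Phospholamban, Pln, the pump inhibitor of slow fibers and heart, was dim, at -2.63, -3.6, -2.57 and -2.98 in VC, -3.97, -4.21, -3.44 and -3.63 in LFA and -3.4, -3.61, -2.98 and -3.13 in LNT. It read -2.8, -4.47, -2.87 and -2.64 in SFA and -3.49, -2.84, -3.79 and -3.35 in SNT, overlapped between groups and was not called (-0.87 ± 0.36, adjusted p = 0.16 in LFA and -0.33 ± 0.36, adjusted p = 0.63 in LNT). The pump genes Atp2a1, of fast fibers, and Atp2a2, of slow fibers, were not called, at -1.55 and -0.9 in LFA and -0.99 and -0.27 in LNT.

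**Figure D4:**
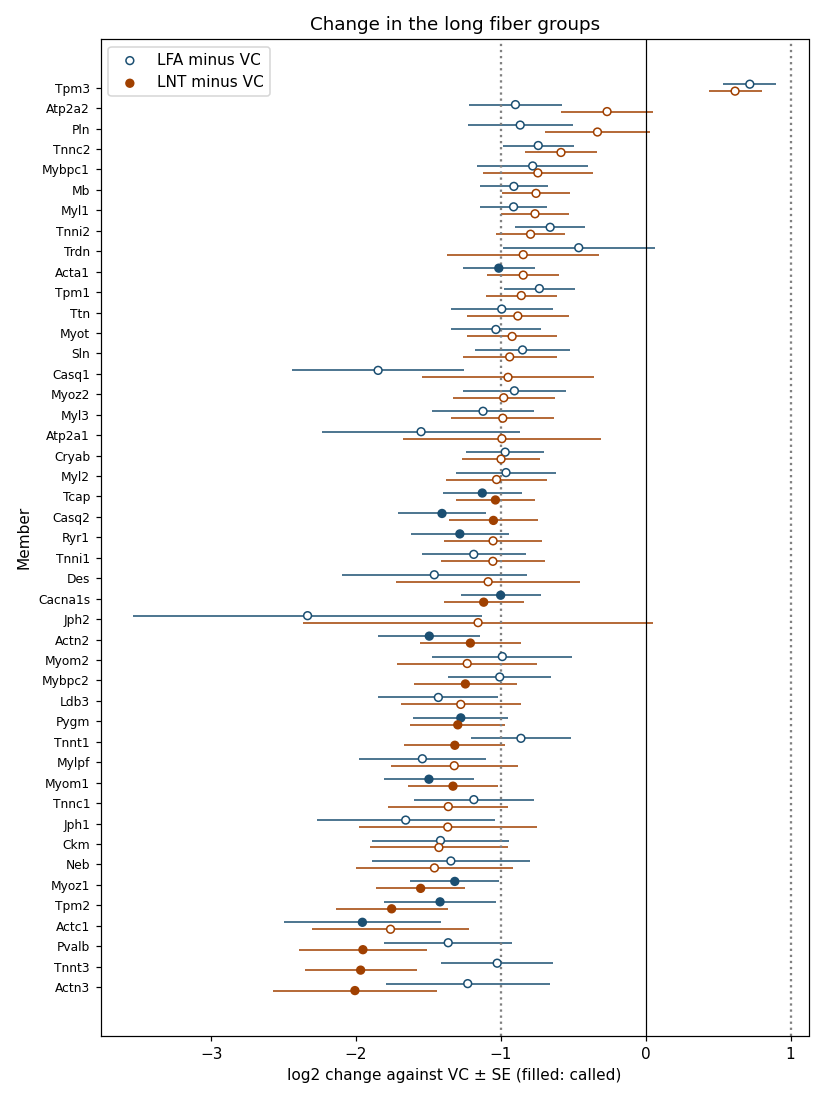
Points are log2 changes against VC with their SE for each member in LFA and LNT, ordered by the LNT change, and filled where called. All points but those of Tpm3 lie below 0, and filled points are 11 in LFA and 13 in LNT.

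The 5 members with the widest spread within groups were Jph2, Atp2a1, Des, Jph1 and Casq1, with a mean SD of 0.85 to 1.82 against 0.14 for Tpm3. Jph2 had the most negative change of the members in LFA (-2.33 ± 1.21, adjusted p = 0.24) and was not called. It was dim, at a mean of -0.79 in VC and -3.12 in LFA, and above background on 19 arrays. Jph1 was dim as well, at -1.13 in VC and -2.79 in LFA, and the part of low signal in their spread was not tested. In 24 of 25 combinations of these genes and groups, the lowest array was the one with the lowest index of 5' to 3' signal, a mean over 1125 transcripts. These arrays were VC replicate 2, SFA replicate 1, LFA replicate 3, SNT replicate 4 and LNT replicate 2, at -0.34, -0.56, -0.48, -0.36 and -0.44. For the other 40 members this was so in 56 of 200 combinations. VC replicate 2 was the lowest VC array for 10 members and the highest for 28. A fit with the index as a covariate is given among the alternatives below. Beyond that fit, the part of RNA quality in these values was not tested.

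Slow and fast forms were compared in 10 pairs as the slow minus the fast log2 signal relative to the VC mean. The pair of Tpm3 and Tpm1 was higher without overlap in both groups, at -0.03, -0.54, 0.36 and 0.21 in VC, 1.41, 1.81, 1.23 and 1.37 in LFA and 1.73, 1.21, 1.54 and 1.42 in LNT. The exact permutation test gave p = 0.029 in each, the smallest that 4 against 4 arrays allow, and an adjusted p of 0.57 over the 40 tests. That pair rests on the Tpm3 probe described above. No other pair separated LFA or LNT from VC. For Tnnt1 and Tnnt3 the mean was 0.65 ± 0.29 (SD, n = 4) in LNT (exact p = 0.057), and for Tnnc1 and Tnnc2 it was -0.78 ± 0.31 (SD, n = 4, exact p = 0.057), with the opposite sign.

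Averaged over the 10 pairs, the difference was 0.27 ± 0.31 (SD, n = 4) in LFA and 0.29 ± 0.31 in LNT, beside an SD of 0.47 in VC. In SFA it was 0.24 ± 0.37 and in SNT -0.15 ± 0.37. Without the Tpm3 and Tpm1 pair it was 0.14 in LFA and 0.15 in LNT. For the 11 slow forms the changes had a median of -0.91 (LFA) and -0.99 (LNT), and for the 12 fast forms -1.13 and -1.12. The mean pair difference of each long fiber group was smaller than the SD between the 4 VC arrays, but that SD rested on VC replicate 2, at 0.68 against -0.04, -0.31 and -0.33. Without it the SD of the 3 VC arrays was 0.16. The differences over all 10 pairs, that of Tpm3 and Tpm1 included, were then 0.50 in LFA, 0.51 in LNT and 0.47 in SFA. They were larger than that SD, which describes single arrays and gives no test of group means. In each group the highest mean pair difference was on the array with the lowest index of 5' to 3' signal. It was 0.79 on SFA replicate 1, 0.59 on LFA replicate 3, 0.40 on SNT replicate 4 and 0.74 on LNT replicate 2. Of these arrays only VC replicate 2 was left out here, and the cause of the pattern was not tested.

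**Figure D5:**
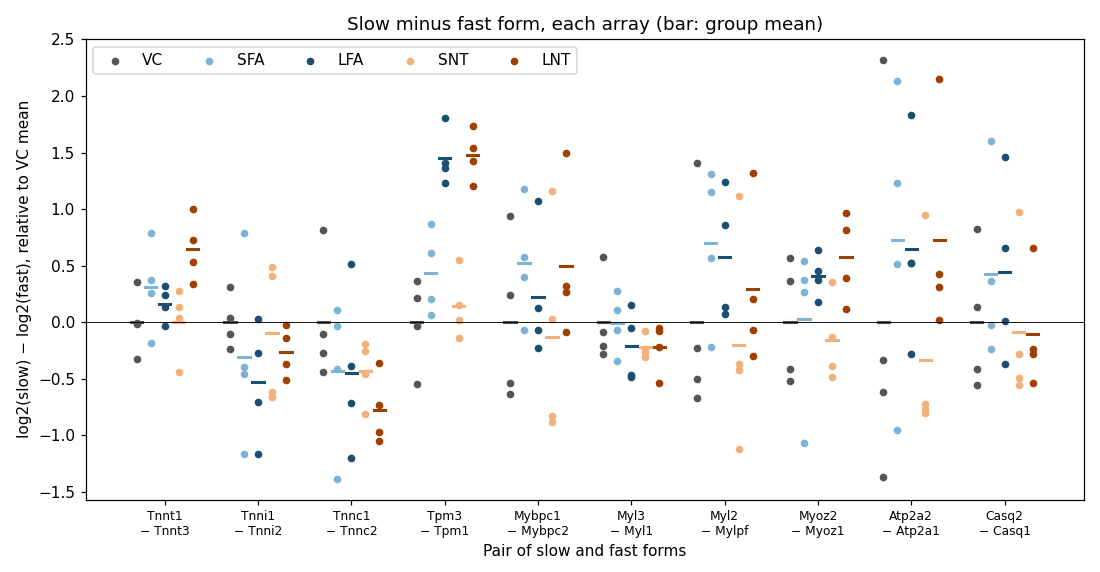
Points are arrays and bars group means of the slow minus fast log2 difference relative to the VC mean, for 10 pairs. The pair of Tpm3 and Tpm1 has all LFA and LNT points above all VC points, and the other pairs overlap.

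Fiber length was compared within each material. In LNT against SNT 5 members were called lower, namely Actn3, Tnnt3, Myoz1, Pygm and Pvalb, beside 2.65% of all probes, and 4 of the 5 are fast forms. With slide as a block 0 were called, and without SNT replicate 4 there were 16, the share of all probes not being counted in either run. The slide that held the first 2 VC arrays was the only one with both groups, holding 2 SNT arrays and 1 LNT array. The other SNT arrays lay on the slide of VC replicate 4 and the other LNT arrays on the third slide. Length and slide can thus hardly be told apart in this comparison. In LFA against SFA 0 members were called by limma (0.133% of all probes lower), with 24 at an unadjusted p under 0.05. The methods' test, 1 test over all 5 groups, was passed by 2 members that also differed 2-fold between LFA and SFA. That test does not compare LFA with SFA alone. Between LFA and LNT 0 were called (0% of all probes), with 1 at an unadjusted p under 0.05. The test of whether the length effect differed between materials gave 0 (0% of all probes), with 1 at an unadjusted p under 0.05.

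Of 106 other muscle genes tested, 20 were called lower in LFA and 24 in LNT, beside 1.75% and 3.16% of all probes. The mean was lower for 99 of the 106 in each group, and 5 genes, Palld, Atp2a3, Pgm1, Mybpc3 and Tnni3, had higher means in both without being called. Of 38 further sarcomere and Z-disc genes tested, 8 were called lower in LFA and 9 in LNT, among them Csrp3 (-1.48 ± 0.41, adjusted p = 0.048 in LFA and -2.03 ± 0.41, adjusted p = 0.0058 in LNT) and Lmod3 (-1.23 ± 0.3, adjusted p = 0.032 in LFA and -1.67 ± 0.3, adjusted p = 0.0028 in LNT). Of 28 genes of excitation-contraction coupling, 4 were called lower in each, among them Tmem38a, a potassium channel of the sarcoplasmic reticulum, in both (-1.2 ± 0.29, adjusted p = 0.027 in LFA and -1.17 ± 0.29, adjusted p = 0.018 in LNT), and the chloride channel gene Clcn1 was called in LFA (-1.59 ± 0.4, adjusted p = 0.033 in LFA and -1.22 ± 0.4, adjusted p = 0.067 in LNT). Of 15 genes of muscle glycolysis and phosphagen metabolism, 5 were lower in LFA and 7 in LNT, among them Pgam2 (-1.15 ± 0.28, adjusted p = 0.03 in LFA and -1.3 ± 0.28, adjusted p = 0.0087 in LNT). Of 11 dystrophin complex genes 2 were lower in each, including Sgca (-1.17 ± 0.28, adjusted p = 0.025 in LFA and -1.12 ± 0.28, adjusted p = 0.019 in LNT). Of 10 cardiac and embryonic forms tested 0 were called by limma in either, with 4 in each at an unadjusted p under 0.05. No gene of these lists was called higher. Of the 4 adult myosin heavy chain genes, the slow form Myh7 was called in both (-1.12 ± 0.3, adjusted p = 0.041 in LFA and -1.15 ± 0.3, adjusted p = 0.024 in LNT) and Myh1 in LNT (-0.96 ± 0.27, adjusted p = 0.052 in LFA and -1.34 ± 0.27, adjusted p = 0.0058 in LNT), while Myh4, of the fastest fibers, changed by -0.26 ± 0.86, adjusted p = 0.87 in LFA and -2.8 ± 0.86, adjusted p = 0.053 in LNT.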

How the data were processed

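Diaphragm RNA of 20 mice was hybridised to 1-colour Agilent whole mouse genome arrays. The authors deposited scanner files from Agilent Feature Extraction 10.7.3.1 (per the labels) holding spot intensity, and a table of log2 group means centred per probe. The members and lists were chosen with earlier results of these data known. Outlier spots (92 to 204 per array) were left out, replicate spots averaged, and log2 of the processed intensity minus the array's 75th percentile was used. Probes well above background on at least 4 arrays (36930) entered 1 limma fit (R 4.3.3, limma 3.58.1) over 5 groups with Benjamini-Hochberg adjustment over all probes. The script was tested on simulated data, where a first criterion failed and was replaced by the calibration of errors and a limit on false calls. The simulation showed low power for 2-fold changes with 4 arrays per group. Pairs were compared by exact two-sided permutation tests. Members described in full were those of non-overlapping pairs, up to 12 called members with the largest change, and Sln, Pln, Pvalb and Cryab. Of other lists at most 4 called genes were named. Promoter windows came from RefSeq. Nothing states whether samples with equal replicate numbers shared a batch. The number of arrays, 4 per group, limits the precision. Alternatives were other scalings, filters, blocks, covariates, left-out arrays, and the methods' test, which allows unequal variances across groups. The latter is 1 test over all 5 groups. Members were counted by it where the groups named also differed 2-fold, so it does not test those groups alone.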

Additional observations from a re-analysis of the deposited data

Results flagged for a closer look

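In 8 of 95 groups of 4 arrays examined, 1 array stood apart by Dixon's ratio, and chance gives about 1 in 20. For Tpm3, LFA replicate 1 was low (ratio 0.873) and SNT replicate 4 high (0.859). For Actn3, LNT replicate 3 was high (0.874). For Actn2, SFA replicate 4 was high (0.836). VC replicate 2 was high for Tnnt1 (0.885) and Sln (0.872). For Pln, SFA replicate 2 was low (0.876). The mean pair difference was high on LNT replicate 2 (0.850).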

How the results depend on the processing

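The direction was stable but the number of calls was not. Single calls differed in how often an alternative run lost them. In LFA, the call of Actc1 was lost in 26 runs, Cacna1s in 24, Tpm2 in 23, and Acta1 and Ryr1 in 16 each. In LNT, that of Casq2 was lost in 19 and that of Actn2 in 15. The fewest losses were 0, for Myom1 in LFA and Tnnt3 in LNT. The median member change stayed below 0 in both long fiber groups in every alternative run. It was -0.69 in LFA, -0.71 in LNT and -0.15 in SFA with quantile normalization, and -0.87 in LNT with array brightness as a covariate. Leaving out 1 array at a time gave -1.22 to -0.96 in LFA, -1.16 to -0.98 in LNT, -0.43 to -0.16 in SFA and -0.54 to -0.03 in SNT.

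Members called lower or higher in LFA (11) and LNT (13) became 3 and 3 with quantile normalization, 4 and 6 with slide as a block, 6 and 4 with brightness, 18 and 25 with the 5' to 3' index, and 6 and 5 by the methods' test. Before the 2-fold limit, the methods' test over 5 groups was passed by 7 members and 3.79% of all probes tested. For the other alternatives here and below, the share of all probes called was not counted. A change in these counts can thus not be set beside one over all probes. In LFA they were 4 with the median of tested probes as the scale, 5 without a filter and 6 with only the groups compared. With the replicate block LFA had 5 and LNT against SNT 3. The correlation of deviations between arrays of equal number ran from -0.68 to 0.69. It was not compared with that of arrays of unequal number, so it cannot show whether equal numbers paired the arrays. For LNT against SNT (5) the counts were 2 with quantile normalization, 0 with slide, brightness or only the groups compared, 1 by the methods' test and 16 without LFA replicate 3 and SNT replicate 4. For LFA against SFA (0) they were 1 with the index and 2 by the methods' test.

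Leaving out 1 array gave 1 to 19 members in LFA, 5 to 20 in LNT, 1 to 16 in LNT against SNT and 0 to 1 in LFA against SFA. The LFA count was 1 without LFA replicate 2, 2 without LFA replicate 1, 3 without VC replicate 2, 4 without VC replicate 1 or 4, 6 without VC replicate 3 or LFA replicate 4, 7 without LFA replicate 3 or LNT replicate 1 or 4, and 19 without SNT replicate 4. The LNT count was 5 without VC replicate 2 or LNT replicate 1, 6 without LNT replicate 4, 8 without VC replicate 4 and 20 without SNT replicate 4. The LNT against SNT count was 1 without SNT replicate 1 or 2, 2 without LNT replicate 1 or 4, 3 without SNT replicate 3 or LNT replicate 2, and 16 without SNT replicate 4. Chosen after seeing the data, leaving out SNT replicates 3 and 4 together gave 21 in LFA, 20 in LNT, 2 in LFA against SFA and 22 in LNT against SNT, and leaving out the 5 arrays of high liver markers gave 6, 20, 0 and 21.

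Other pathway genes called in LFA (20) and LNT (24) became 5 and 5 with quantile normalization, 5 and 12 with the median scale, 0 and 6 with slide, 11 and 5 with brightness, 36 and 37 with the index, and 7 and 7 by the methods' test. In LFA they were 5 without a filter, 6 with the replicate block, 5 with only the groups compared, and 33 and 12 without the SNT pair of arrays and without the liver arrays. Leaving out 1 array gave 0 to 32 in LFA and 7 to 29 in LNT.

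The mean pair difference in LNT was 0.62 with brightness, and leaving out 1 array gave 0.17 to 0.50 in LFA, 0.13 to 0.51 in LNT, 0.06 to 0.47 in SFA and -0.33 to 0.08 in SNT. Averaging all probes turned Tpm3 to -0.83 in LFA and -0.89 in LNT, and its pair with Tpm1 to -0.43 and -0.59. With quantile normalization Tnnc2 and Atp2a2 in LNT turned to 0.12 and 0.18. Uncalled pairs that turned were Casq2 and Casq1 in LNT (from -0.35 to 0.17 over the left-out arrays), Mybpc1 and Mybpc2 in LFA (from -0.055 to 0.54, and -0.055 without LFA replicate 3 and SNT replicate 4) and Myl2 and Mylpf in LNT (from -0.052 to 0.76). The cause of these shifts was not tested. The table of the authors, which holds group means, put the member median at -1.07 (LFA) and -1.03 (LNT).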
